A study of Mus musculus with 4 samples.

Results

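Interferon-stimulated genes were followed in liver cells of mice with a knockout of Cyr61 and of their controls, as a list of 46 genes taken by symbol. Of these, 44 had a row among the 32285 genes of the count matrices, and Mx1 and Mx2 are not analysed here. Within the list, 9 measured genes of the Ifit and Oas families formed the type I group, and Gbp2, Gbp3, Gbp4, Gbp5, Gbp7, Irgm1 and Iigp1 formed the gamma-type group of 7. The others were Igtp and Ifi47 (GTPases related to Irgm1), the transcription factors Irf1, Irf7, Irf9 and Stat2, the nucleic acid sensors Ifih1, Ddx58, Dhx58 and Zbp1, Isg15 with its protease Usp18, 10 antiviral enzymes and effectors, 3 membrane proteins (Ifitm1, Ifitm2 and Ifitm3) and the Schlafen genes Slfn1, Slfn4 and Slfn5.

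Interferons are secreted proteins that warn cells of infection. Type I interferons signal through a receptor made of IFNAR1 and IFNAR2 to a complex with STAT2 and IRF9, which binds the interferon-stimulated response element (ISRE), whereas interferon gamma, made by T and NK cells, signals through IFNGR1 and IFNGR2 to genes with a gamma-activated site (GAS). The proteins made in response block viral RNA and its translation (IFIT, OAS), attack the membranes around intracellular pathogens (GBP and IRG GTPases) or restrict viral entry (IFITM), and many genes respond to both kinds of interferon.

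The samples were droplet single-cell RNA libraries (10x Genomics) of livers from male mice aged 24 weeks that had been on a NASH diet, a feed that leads to steatosis, inflammation and fibrosis, for 12 weeks. There were 2 Control libraries and 2 libraries labelled Cyr61 KO, called KO here. All 4 came from the strain Cyr61fl/fl, so the Controls carried the floxed allele too. The cells in which the gene was deleted, and the Cre used, are not given in the sources used here. The tissue had been frozen, thawed and digested, and dead cells had been removed. The labels tie no library to 1 animal. The p-values below therefore weigh the difference between KO and Control only against the spread between libraries of a group, which may be technical.

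The promoter windows below show the letters through which these pathways are known to act, for genes on which the results turn or that represent a group. RefSeq starts (GRCm38.p6) were matched for 35 members, and the 250 bases before each start were searched on both strands, overlaps allowed, for GAAA, any 2 bases and GAAA (the core of the ISRE, which reads TTTC, any 2 bases and TTTC when it lies on the other strand) and for TTC, any 3 bases and GAA (the core of the GAS). The ISRE core was present upstream of 17 of the 35 members (48.6%) and of 3.46% of 27025 genes with a start. The GAS core was present upstream of 8 of the 35 members (22.9%) and of 8.13% of those genes. All 5 gamma-type genes with a start held an ISRE core, and so did 5 of 8 type I genes, while 2 of 5 and 2 of 8 held a GAS core. A match is a description of these letters and not a measured binding site. Each window is written 5′ to 3′ on the strand of its gene, and capitals mark the matches of either core.

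Ifit1, chr19:34640764-34640853, plus strand: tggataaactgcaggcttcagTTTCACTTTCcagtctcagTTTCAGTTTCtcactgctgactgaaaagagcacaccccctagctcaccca
Isg15, chr4:156200835-156200924, minus strand: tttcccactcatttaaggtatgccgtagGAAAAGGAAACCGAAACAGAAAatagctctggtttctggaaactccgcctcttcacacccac
Gbp7, chr3:142530243-142530332, plus strand: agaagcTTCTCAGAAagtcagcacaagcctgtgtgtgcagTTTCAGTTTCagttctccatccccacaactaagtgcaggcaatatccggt
Igtp, chr11:58199482-58199555, plus strand: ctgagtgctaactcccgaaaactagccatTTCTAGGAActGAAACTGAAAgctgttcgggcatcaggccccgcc
Irgm1, chr11:48871421-48871484, minus strand: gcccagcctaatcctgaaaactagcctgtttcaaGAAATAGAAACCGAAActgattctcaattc
Irf1, chr11:53769884-53769972, plus strand: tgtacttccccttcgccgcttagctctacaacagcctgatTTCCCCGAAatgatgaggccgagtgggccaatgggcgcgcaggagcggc
Isg20, chr7:78913311-78913399, plus strand: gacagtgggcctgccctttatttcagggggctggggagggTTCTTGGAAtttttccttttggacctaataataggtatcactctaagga
Rsad2, chr12:26456523-26456612, minus strand: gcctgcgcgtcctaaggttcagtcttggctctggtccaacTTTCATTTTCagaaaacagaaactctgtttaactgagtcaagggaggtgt
Slfn5, chr11:82951907-82951996, plus strand: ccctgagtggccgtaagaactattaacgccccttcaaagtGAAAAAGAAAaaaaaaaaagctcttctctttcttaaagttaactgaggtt

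In Ifit1 the first bases of the 2 ISRE cores lay 104 and 85 bases before the start, and in Isg15 3 overlapping cores began 78, 72 and 66 bases before it. Gbp7 and Igtp held both kinds of core, Irf1 and Isg20 held only the GAS core within the searched bases, and Rsad2 and Slfn5 held only an ISRE core. Ifit3 and Ifit3b, neighbouring genes on chromosome 19 (34583531 to 34588731 and 34607970 to 34613401, plus strand, GRCm38), are near-identical copies. Their windows, aligned with a shift of 32 bases, shared 188 of 218 bases (86.2%), and the stretch around both ISRE cores was the same in each:
Ifit3, chr19:34583367-34583456, plus strand: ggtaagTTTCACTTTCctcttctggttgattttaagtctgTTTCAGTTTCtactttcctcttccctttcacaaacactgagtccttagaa
Ifit3b, chr19:34607763-34607852, plus strand: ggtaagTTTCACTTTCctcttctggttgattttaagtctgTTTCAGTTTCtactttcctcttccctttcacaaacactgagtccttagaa
Counts of this pair are uncertain, since reads may be split between the copies. Gbp4 overlaps Gbp8 and Gbp9 on its strand, Igtp overlaps Irgm2, Rtp4 overlaps Gm45338, Ifi47 overlaps Olfr56 and Irf9 overlaps Rnf31, so their counts carry the same doubt.

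**Figure D1:**
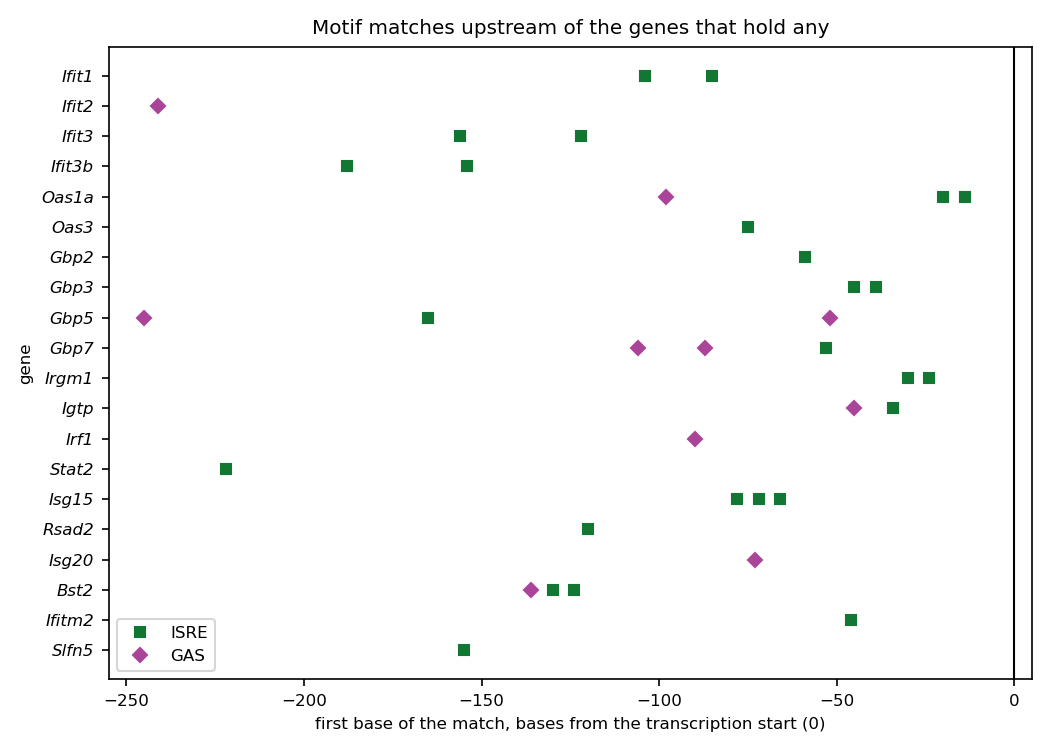
Positions of ISRE cores (squares) and GAS cores (diamonds) in the 250 bases before the transcription start (line at 0), one row per gene with any match; the x axis is in bases. The ISRE cores farthest from the start are those of Stat2 (222 bases), Ifit3b (188) and Gbp5 (165).

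After filters, 4530 and 6669 cells were kept in Control 1 and 2, and 6738 and 4834 in KO 1 and 2, from libraries of 8290677 (Control 1) to 20537236 UMIs (Control 2), with medians per cell from 1203 (Control 1) to 2813 UMIs (KO 2; a UMI is a molecular barcode that lets copies of 1 captured RNA be counted once). Ccn1, the current symbol of Cyr61, had 170 and 142 UMIs in the kept cells of the Controls and 0 and 1 UMI in those of the KO libraries. The Control UMIs came from 65 and 28 cells. Cells with markers of stellate cells or fibroblasts numbered 90 and 10 in the Controls and 0 in each KO library. Whether such cells held the Ccn1 UMIs was not tested, so fewer cells of that type and loss of the transcript cannot be told apart here. Of 22710 kept barcodes, 61 occurred in more than 1 library. Cells were assigned to classes by marker genes that hold no member. T cell-like cells numbered 1721, 2989, 2661 and 2250 in Control 1, Control 2, KO 1 and KO 2, B cell-like cells 568, 1689, 2428 and 1570, NK or ILC-like cells (natural killer or innate lymphoid) 167, 240, 444 and 387, monocyte or macrophage-like cells 456, 399, 257 and 125, and neutrophil-like cells 102, 192, 76 and 51. Levels are CPM, the UMIs of a gene per 1000000 UMIs of its class in a library, given in that order of libraries, and are not scaled by gene length. In a class sum, fewer expressing cells and fewer transcripts per cell cannot be told apart.

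Levels differed widely between the cell classes. Monocyte or macrophage-like cells had the highest mean of the 5 classes for 19 of the 44 members, neutrophil-like cells for 15, NK or ILC-like cells for 7, T cell-like cells for 3 (Ifi47, Igtp and Iigp1) and B cell-like cells for 0. Every library of the highest class lay above every library of the next class for 9 of these in monocyte or macrophage-like, 6 in neutrophil-like and 2 in T cell-like cells. For all others the 2 highest classes overlapped. Classes of a library share that library, so this order is a description without a test.

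The membrane protein gene Ifitm3, which restricts the entry of enveloped viruses, reached 4545, 4870, 5413 and 5787 CPM in monocyte or macrophage-like cells, against 1395 ± 358 CPM in neutrophil-like cells (mean ± SD, n = 4 libraries). Ifitm1 was at 2053, 654, 568 and 926 CPM in neutrophil-like cells and at 20.2 ± 6.81 CPM in the next class, monocyte or macrophage-like cells. Slfn4, a Schlafen gene of myeloid cells, showed a like split, with 851 ± 558 CPM in neutrophil-like and 25.04 ± 6.78 CPM in monocyte or macrophage-like cells. The spread of these neutrophil values came mainly from Control 1, which was the highest library for all 3. Ifi27l2a, a small hydrophobic interferon-induced protein, and the IFITM genes together made up 77.4% ± 1.69 of all member UMIs in monocyte or macrophage-like cells and 4.79% ± 1.91 in NK or ILC-like cells (n = 4 libraries each).

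**Figure D2:**
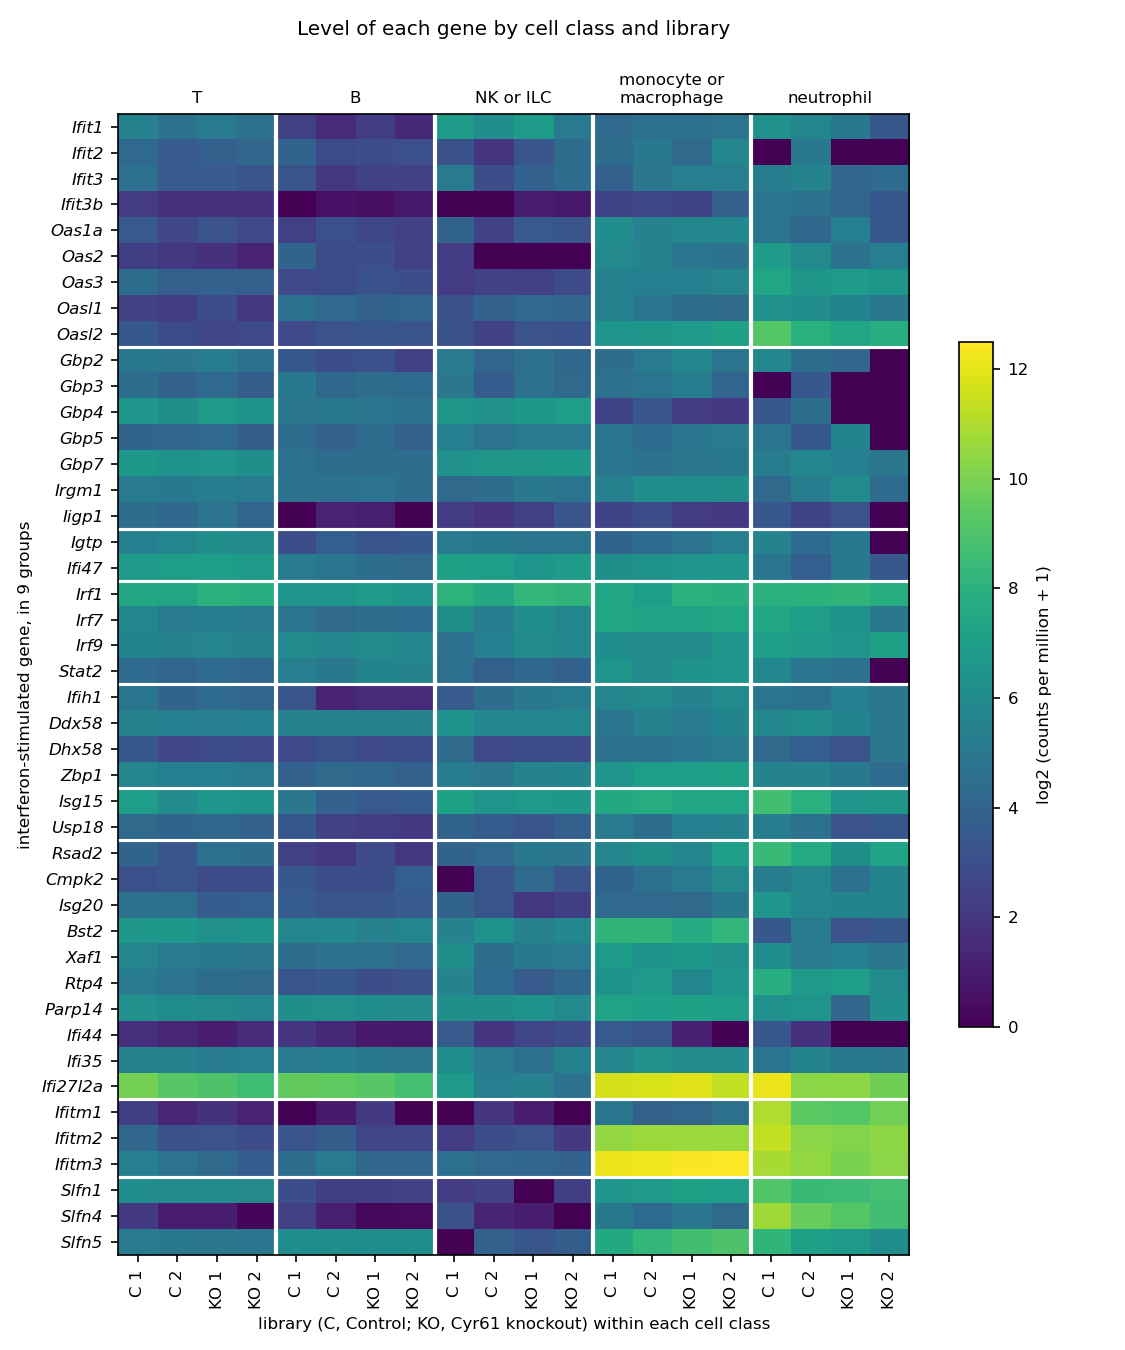
Level of each of the 44 genes (rows, in 9 groups set apart by lines) in 4 libraries of 5 cell classes (columns), as log2 of CPM plus 1. Ifi27l2a and Ifitm3 have their highest mean in monocyte or macrophage-like cells, and Ifitm1, Ifitm2 and Slfn4 in neutrophil-like cells.

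The sums of the type I and of the gamma-type genes were highest in different classes, which did not hold gene by gene: 3 genes of each group had their highest mean in monocyte or macrophage-like cells, and Ifit1 shared NK or ILC-like cells with Gbp4, Gbp5 and Gbp7. Summed over its 9 genes, the type I group was at 63.2 ± 13.6 CPM in B cell-like, 99.5 ± 27.9 in T cell-like, 149 ± 45.6 in NK or ILC-like, 369 ± 38.7 in monocyte or macrophage-like and 660 ± 307 in neutrophil-like cells (mean ± SD, n = 4). Summed over its 7 genes, the gamma-type group was at 301 ± 35.1 CPM in NK or ILC-like, 292 ± 39.8 in T cell-like, 189 ± 28.1 in monocyte or macrophage-like, 138 ± 59.5 in neutrophil-like and 122 ± 13.8 in B cell-like cells. NK or ILC-like and T cell-like cells did not differ in the gamma-type sum beyond their spread, and neither did neutrophil-like and B cell-like cells.

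The ratio of the type I to the gamma-type sum ranged from 0.294 to 0.441 over the libraries in T cell-like, from 0.462 to 0.602 in B cell-like and from 0.343 to 0.642 in NK or ILC-like cells. In monocyte or macrophage-like cells it ranged from 1.51 to 2.36, and in neutrophil-like cells from 2.59 to 8.80. Every myeloid library thus lay above every lymphoid library. In neutrophil-like cells the gamma-type sums rest on only 17, 66, 22 and 5 UMIs in the order of libraries, so the ratios there are loosely determined. The sums depend on how many genes each group holds, so the ratio is read only between classes and libraries. Between genotypes the ratio overlapped: in monocyte or macrophage-like cells it was 2.36 and 1.84 in Control and 1.51 and 2.28 in KO, and in neutrophil-like cells 6.82 and 3.98 in Control and 2.59 and 8.80 in KO. In T cell-like cells it was 0.441 and 0.298 in Control and 0.294 and 0.324 in KO.

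**Figure D3:**
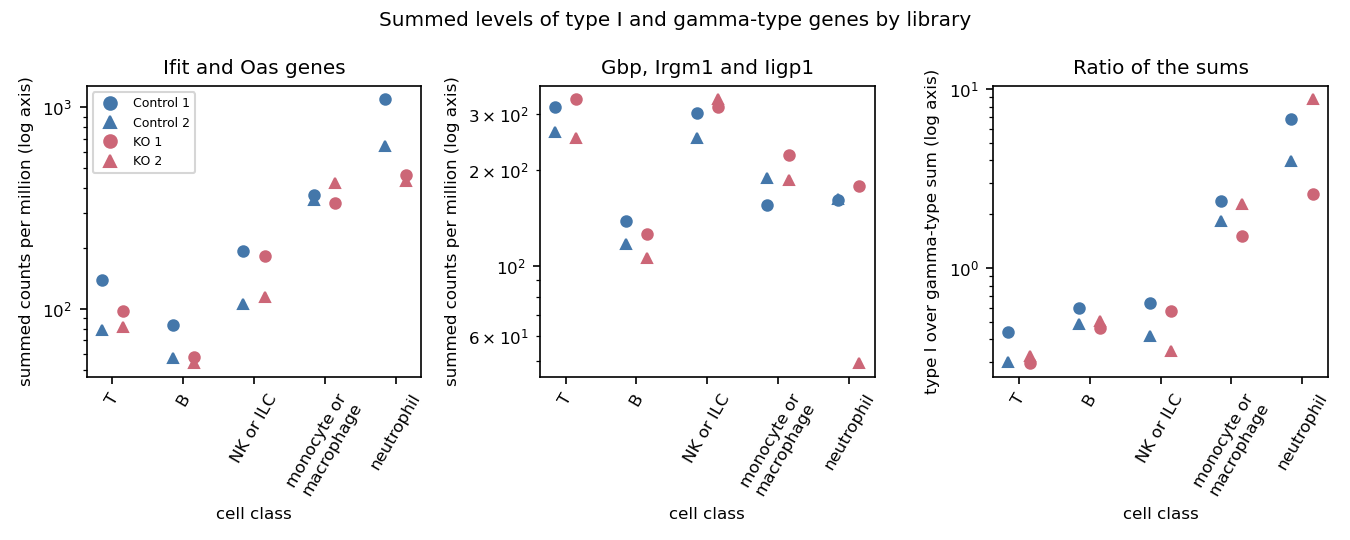
Summed CPM of the type I genes (left), of the gamma-type genes (middle) and their ratio (right), on log axes, by cell class and library (Control blue, KO red; circles replicate 1, triangles replicate 2). The ratio is above 1 in every library of the 2 myeloid classes and below 1 in every library of the 3 lymphoid classes, and Control and KO points overlap in every panel and class except the type I sum of neutrophil-like cells (KO lower) and the gamma-type sum of NK or ILC-like cells (KO higher).

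KO was then compared with Control within each class, with an edgeR quasi-likelihood fit over all genes tested there (Benjamini-Hochberg adjusted p below 0.05 called). A positive log2 fold change is higher in KO.

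In T cell-like cells 1 of 43 members tested was called, against 0.956% of the 11405 genes tested. This was Isg20, an exonuclease that degrades single-stranded RNA, at 25.5 and 22.6 CPM in Control and 11.4 and 12.2 CPM in KO. Both KO libraries lay below both Controls. Isg20 fell by 1.05 ± 0.16 on the log2 scale (SE, n = 2 libraries per group, edgeR adjusted p = 0.0183), whereas DESeq2 gave -1.04 with an adjusted p of 0.107. DESeq2 called 94 genes in this class, and 1 of these was a member, Ifi27l2a. Ifi27l2a was at 957 and 608 CPM in Control and 510 and 391 CPM in KO (edgeR -0.81 ± 0.21, adjusted p = 0.105). Slfn4 alone did not pass the filter on low counts, with 18 UMIs in Control and 8 in KO.

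Next by p in T cell-like cells was Rsad2, which encodes viperin, an enzyme that makes a chain-terminating nucleotide. It was at 15.1 and 8.77 CPM in Control and 22.5 and 21.7 CPM in KO (log2 fold change 0.98 ± 0.21, adjusted p = 0.0638). Cmpk2, a nucleotide kinase gene that neighbours Rsad2 on chromosome 12, was at 7.39, 8.99, 6.17 and 6.35 CPM (adjusted p = 0.412), with both KO libraries below the Controls. Ifitm3 came next, at 39.5 and 25.8 CPM in Control and 18.8 and 11.5 CPM in KO (-1.09 ± 0.24, adjusted p = 0.0700). With 1 library left out, Ifitm3 passed the threshold without Control 1 (adjusted p = 0.0474), Control 2 (0.00900) or KO 1 (2.13e-06). Rsad2 passed without Control 1 (0.00245), KO 1 (0.0286) or KO 2 (0.0195), and without Control 2 its log2 fold change was 0.58 (adjusted p = 0.159). Each such fit leaves 1 group with a lone library, assumed to vary like the others, so these passes do not add support to a gene that missed the threshold on all 4. In the same cells the 12 neutrophil markers summed to 85.7 and 159 CPM in Control and 45.3 and 30.5 CPM in KO. The 23 monocyte and macrophage markers summed to 133, 64.5, 76.3 and 77.6 CPM. The 10 conventional dendritic cell markers, among them Ccr7 and Itgae, summed to 71.3 and 108 CPM in Control and 238 and 270 CPM in KO. The 8 NK or ILC markers were at 168 and 185 CPM in Control and 218 and 207 CPM in KO. The part of these differences in the Isg20, Rsad2 and Ifitm3 values was not tested.

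Of the type I genes in T cell-like cells, Ifit1, which binds viral RNA lacking the host cap mark, was the most abundant, at 45.1, 24.7, 35.4 and 25.6 CPM. Oas3, which makes the 2-5A signal that activates RNase L, was at 20.7, 12.6, 13.9 and 12.7 CPM, and Ifit2 at 18.1, 10.9, 13.03 and 16.6 CPM. Control 1 was the highest library for each of the 3, and Control and KO overlapped. Of the gamma-type genes, Gbp7 was at 102, 82.5, 91.9 and 73.0 CPM, Gbp4 at 90.5, 71.9, 106 and 81.8 CPM and Irgm1, a regulator of autophagy and of vacuoles with pathogens, at 32.9, 32.5, 37.0 and 33.2 CPM. The median log2 fold change was -0.20 over the 9 type I genes and -0.03 over the 7 gamma-type genes, beside -0.01 over all genes tested.

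The fold change was negative for 34 of the 43 members tested in T cell-like cells, of which only Isg20 passed the test, compared with 5781 of 11405 genes. Both KO libraries lay below both Controls for 15 of the 43 members and for 19.3% of all genes tested, and above for 4 (Rsad2, Irf1, Igtp and Irgm1) and 27.7%. The antiviral enzymes and effectors held 8 of the 15. Irf1, a transcription factor induced by both kinds of interferon, was at 185 and 161 CPM in Control and 253 and 224 CPM in KO (0.43 ± 0.13, adjusted p = 0.164).

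In B cell-like cells 1 of 38 members tested was called, against 0.666% of 9905 genes. Ifitm3 was at 21.2 and 34.2 CPM in Control and 16.7 and 16.3 CPM in KO, and fell by 1.02 ± 0.22 on the log2 scale (adjusted p = 0.0408). Control 2 set much of this difference: without it the log2 fold change was -0.43 (adjusted p = 0.731). The call was also lost without KO 1 (-1.04, adjusted p = 0.538) and without KO 2 (-0.96, adjusted p = 0.934), and over all alternatives with an adjusted p it was lost in 6 of 11. DESeq2 called 0 members in this class and gave Ifitm3 no adjusted p. Its neighbour in the cluster, Ifitm2, was at 8.48, 11.7, 5.02 and 5.05 CPM (-1.23 ± 0.35, adjusted p = 0.134). The neutrophil markers in B cell-like cells summed to 134 and 228 CPM in Control and 47.5 and 29.1 CPM in KO, in the same order of groups as Ifitm3, and their part in it was not tested.

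The third B cell-like gene by p was Ifi27l2a, at 723, 695, 602 and 455 CPM (-0.53 ± 0.16, adjusted p = 0.178), where the KO libraries were the lower pair. The most abundant type I genes were Oasl1, an OAS-like protein, at 24.0, 18.2, 13.6 and 15.6 CPM, Ifit2 at 15.6, 5.97, 6.69 and 7.21 CPM, and Oas2 at 15.6, 6.25, 6.90 and 4.09 CPM. Only Oasl1 of these did not overlap between the groups (-0.54, adjusted p = 0.362). Of the gamma-type genes Gbp4 was at 29.7, 32.3, 29.3 and 24.5 CPM, Irgm1 at 24.0, 24.2, 26.6 and 22.1 CPM, and Gbp3 at 31.1, 17.6, 21.3 and 19.7 CPM. The medians were -0.17 over 8 type I and -0.11 over 6 gamma-type genes tested, with 0.00 over all genes. Both KO libraries lay below both Controls for 11 of 38 members and 13.2% of genes, and above for 4 members and 32.8% of genes.

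In NK or ILC-like cells edgeR called 0 of 29 members tested, against 2.2% of 7329 genes, and DESeq2 called 0 members. The unadjusted edgeR p was below 0.05 for 4 of the 29 members and for 975 of the 7329 genes. Ifi27l2a had the smallest p, at 108 and 39.95 CPM in Control and 43.8 and 24.9 CPM in KO (-1.06 ± 0.32, adjusted p = 0.0627), so that Control 1 alone stood above the rest. Bst2, which encodes tetherin, a protein that holds budding virus at the cell surface, was at 44.9, 82.8, 43.8 and 55.3 CPM (-0.67 ± 0.27, adjusted p = 0.214). Rtp4, a chaperone of membrane receptors, was at 44.9, 19.98, 11.2 and 16.8 CPM (-1.12 ± 0.45, adjusted p = 0.216), with both KO libraries lowest.

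Ifit1 in NK or ILC-like cells was at 116, 68.5, 117 and 34.5 CPM, the highest mean of the 5 classes (84.0 ± 40.1 CPM, against 42.4 ± 28.0 in neutrophil-like cells), and the libraries of these 2 classes overlapped. The next type I genes were Ifit3 at 33.6, 7.13, 14.3 and 20.05 CPM and Oasl1 at 7.48, 14.3, 18.3 and 16.0 CPM. The gamma-type sum was 303 and 253 CPM in Control and 316 and 334 CPM in KO, without overlap. Gbp4 was at 97.2, 79.9, 99.9 and 128 CPM, Gbp7 at 78.5, 95.6, 96.8 and 99.4 CPM, and Gbp5, which promotes inflammasome assembly, at 41.1, 25.7, 34.7 and 33.7 CPM. The medians were 0.04 over 3 type I and 0.10 over 6 gamma-type genes tested, with -0.01 over all genes. Both KO libraries lay above both Controls for 9 of 29 members and 35.2% of genes, and below for 5 members and 11.4% of genes.

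In monocyte or macrophage-like cells edgeR called 0 of 40 members tested, against 2.53% of 6964 genes, and DESeq2 called 0 members. The unadjusted edgeR p was below 0.05 for 6 of the 40 members and for 873 of the 6964 genes. Slfn5, a nuclear Schlafen protein, was nearest to the threshold, at 191 and 306 CPM in Control and 416 and 509 CPM in KO (0.80 ± 0.22, adjusted p = 0.0606). Oas2 was at 57.1 and 47.9 CPM in Control and 28.9 and 25.2 CPM in KO (-1.01 ± 0.29, adjusted p = 0.0817). Cmpk2 was at 15.2, 23.3, 34.9 and 58.3 CPM (1.11 ± 0.33, adjusted p = 0.0954). In each of the 3 the groups did not overlap, with Oas2 on the lower and the other two on the higher side in KO. The class held a different mix of cells in the groups: without cells with UMIs of C1q genes, which mark macrophages, 306 of 456 and 323 of 399 cells were left in Control and 246 of 257 and 122 of 125 in KO. Among those left the log2 fold change was 0.56 for Slfn5 (adjusted p = 0.287), -1.23 for Oas2 (0.0573) and 0.80 for Cmpk2 (0.374). Over 14 alternative fits the log2 fold change ranged from 0.52 to 1.18 for Slfn5, from -1.23 to -0.87 for Oas2 and from 0.77 to 1.49 for Cmpk2. The 0.52 of Slfn5 was found without Control 1, which left Control 2 as the lone Control.

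None of the type I or gamma-type genes passed the test in these cells. Oasl2 was the most abundant type I gene, at 94.4, 95.9, 107 and 142 CPM, Oas1a was at 69.9, 45.1, 51.7 and 55.2 CPM and Oas3 at 44.3, 41.6, 40.9 and 50.4 CPM. For Oasl1, at 42.0, 28.2, 21.6 and 18.9 CPM, the KO libraries lay below (-0.81 ± 0.35, adjusted p = 0.316), whereas for Ifit3, at 14.0, 30.3, 39.7 and 39.4 CPM, they lay above (0.67 ± 0.34, adjusted p = 0.436). The gamma-type genes Irgm1 (43.1, 69.1, 68.6 and 72.5 CPM), Gbp2 (21.0, 33.1, 52.9 and 26.8 CPM) and Gbp7 (29.1, 24.7, 30.1 and 31.5 CPM) overlapped between the groups except for Gbp7, which was slightly higher in both KO libraries. The medians were 0.08 over 8 type I and 0.21 over 5 gamma-type genes tested, with -0.02 over all genes. Both KO libraries lay above both Controls for 14 of 40 members and 27.3% of genes, and below for 3 members and 16.6% of genes. Irf1 was among the former, at 162 and 128 CPM in Control and 250 and 230 CPM in KO (0.66 ± 0.21, adjusted p = 0.119).

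Ifi44, a cytoplasmic interferon-induced protein, did not pass the filter in monocyte or macrophage-like cells and is named here after its values were seen. It had 9 and 12 UMIs in Control and 1 and 0 UMIs in KO. The ratio of Control to KO per UMI sequenced was 13.5 (exact binomial 95% interval 2.18 to 559, counting error only). Since Ifi44 was picked by these same counts, and the interval leaves out the spread between libraries, it is no test of a difference. The part of the different mix of cells in the groups was not tested.

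In neutrophil-like cells edgeR called 0 of 15 members tested, against 0.0641% of 1560 genes, and DESeq2 called 0 members. The unadjusted edgeR p was below 0.05 for 7 of the 15 members and for 114 of the 1560 genes. Isg15, a ubiquitin-like protein attached to newly made proteins, was at 416 and 246 CPM in Control and 89.3 and 98.5 CPM in KO (-1.81 ± 0.39, adjusted p = 0.290). Slfn4 was at 1656, 777, 568 and 404 CPM (-1.34 ± 0.39, adjusted p = 0.518). Rsad2 was at 360, 201.5, 73.0 and 148 CPM (-1.35 ± 0.43, adjusted p = 0.518). Control 1 was the highest library and both KO libraries lay below both Controls for all 3.

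The fold change was negative for each of the 15 members tested in neutrophil-like cells, compared with 807 of 1560 genes. Their median was -0.87, and that of all genes -0.02. Both KO libraries lay below both Controls for 7 of the 15 members and 13.9% of genes, and above for 0 and 22.2%. These 15 are the members abundant enough to pass the filter, and the others had few counts, for example 23 and 4 Ifit3 UMIs over the Control and KO libraries. Members that passed mainly through their Control counts could hardly have come out higher in KO.

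The type I sum in neutrophil-like cells was 1098 and 646 CPM in Control and 463 and 433 CPM in KO, while the gamma-type sum was 161, 162, 179 and 49.3 CPM. Oasl2, the most abundant type I gene there, was at 568, 246, 170 and 217 CPM (-1.05 ± 0.41, adjusted p = 0.564). Oas3 was at 170, 98.3, 114 and 98.5 CPM, and Oas2 at 114, 61.4, 24.3 and 39.4 CPM. None of the 7 gamma-type genes was tested; Gbp7 had 27 and 8 UMIs over the Control and KO libraries, Irgm1 17 and 10, and Gbp2 15 and 2. The same cells of Control 1 had the lowest level of the 12 neutrophil markers, 192190 CPM, against 258880, 256500 and 271880 CPM in Control 2, KO 1 and KO 2, and the lowest median depth, 867.5 UMIs against 1234 to 1611. The part of these differences in the member values was not tested. Without Control 1, which left Control 2 as the lone Control, the log2 fold change of Isg15 was -1.54.

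**Figure D4:**
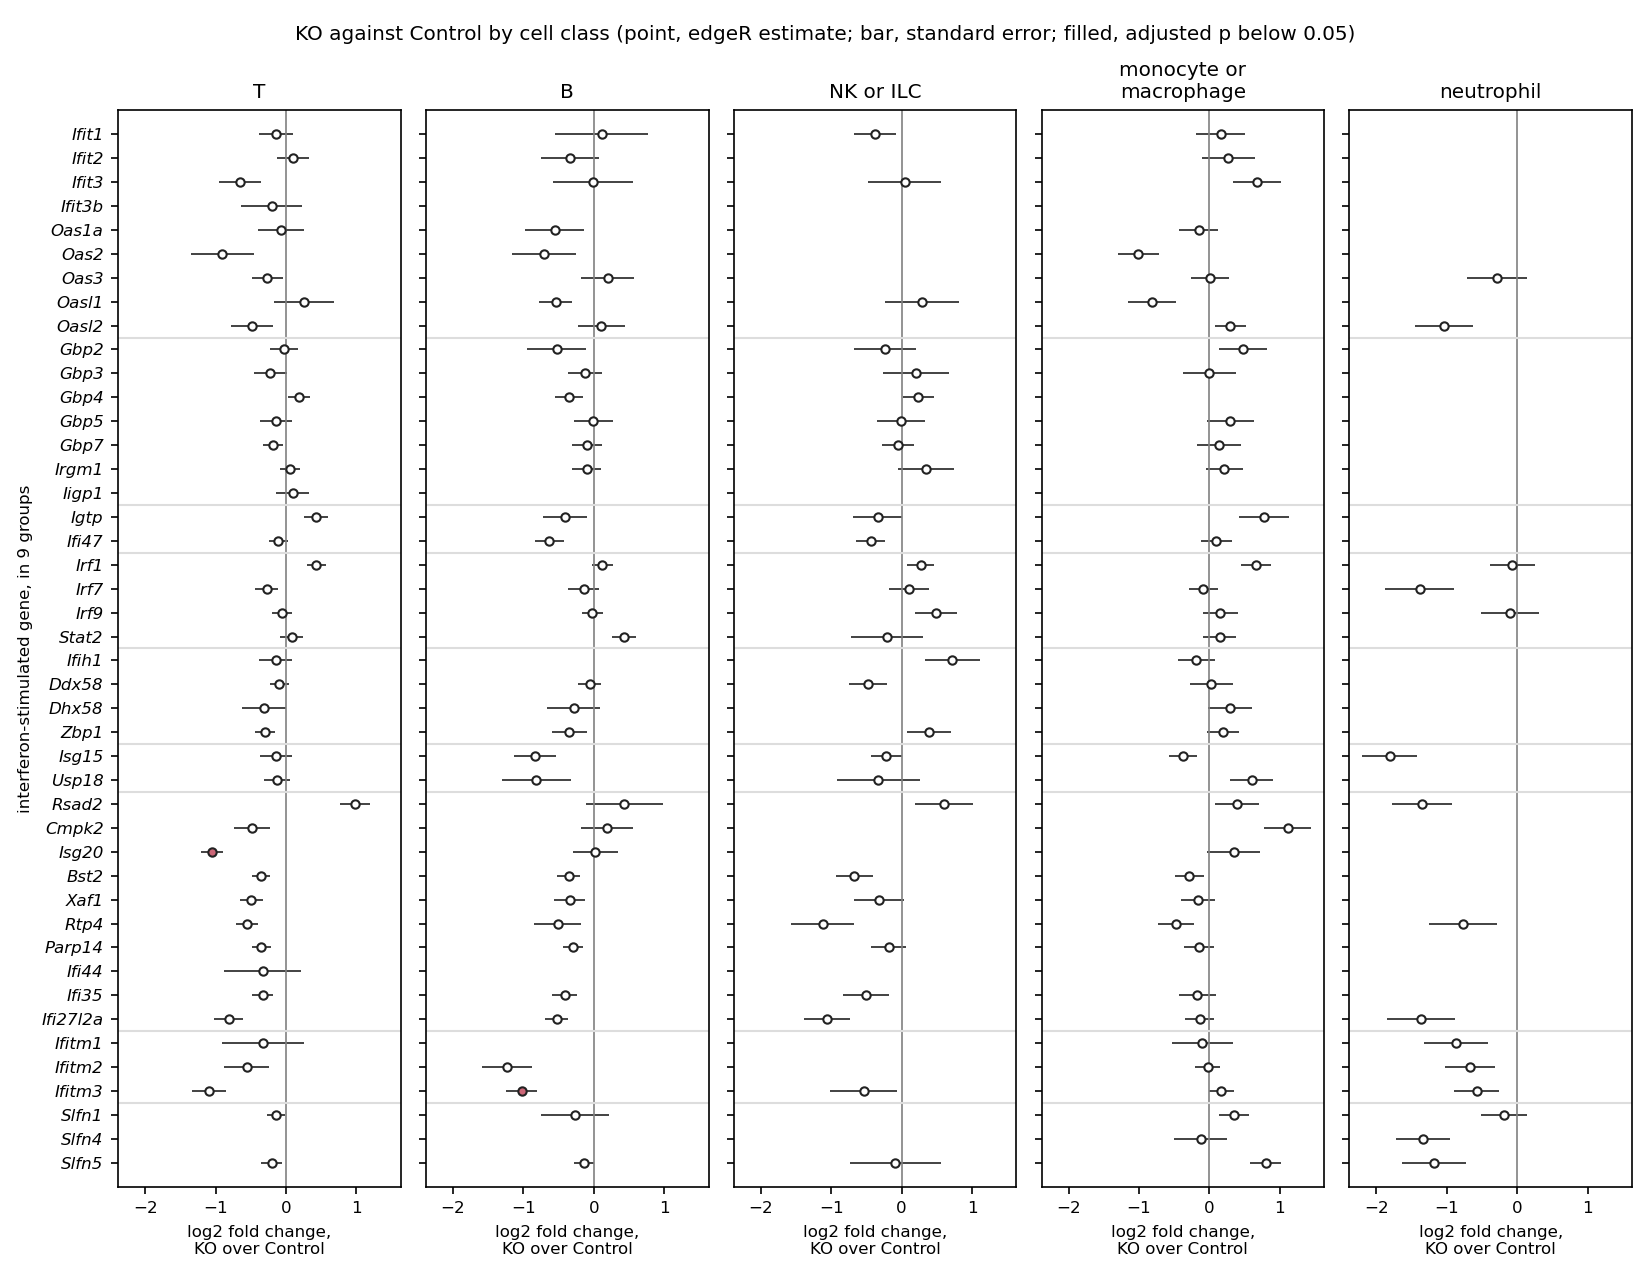
Log2 fold change, KO over Control, of each member tested in each class (points, edgeR estimates; bars, SE; filled points, adjusted p below 0.05). The 2 filled points are Isg20 in T cell-like and Ifitm3 in B cell-like cells, and all 15 points in neutrophil-like cells lie below 0.

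**Figure D5:**
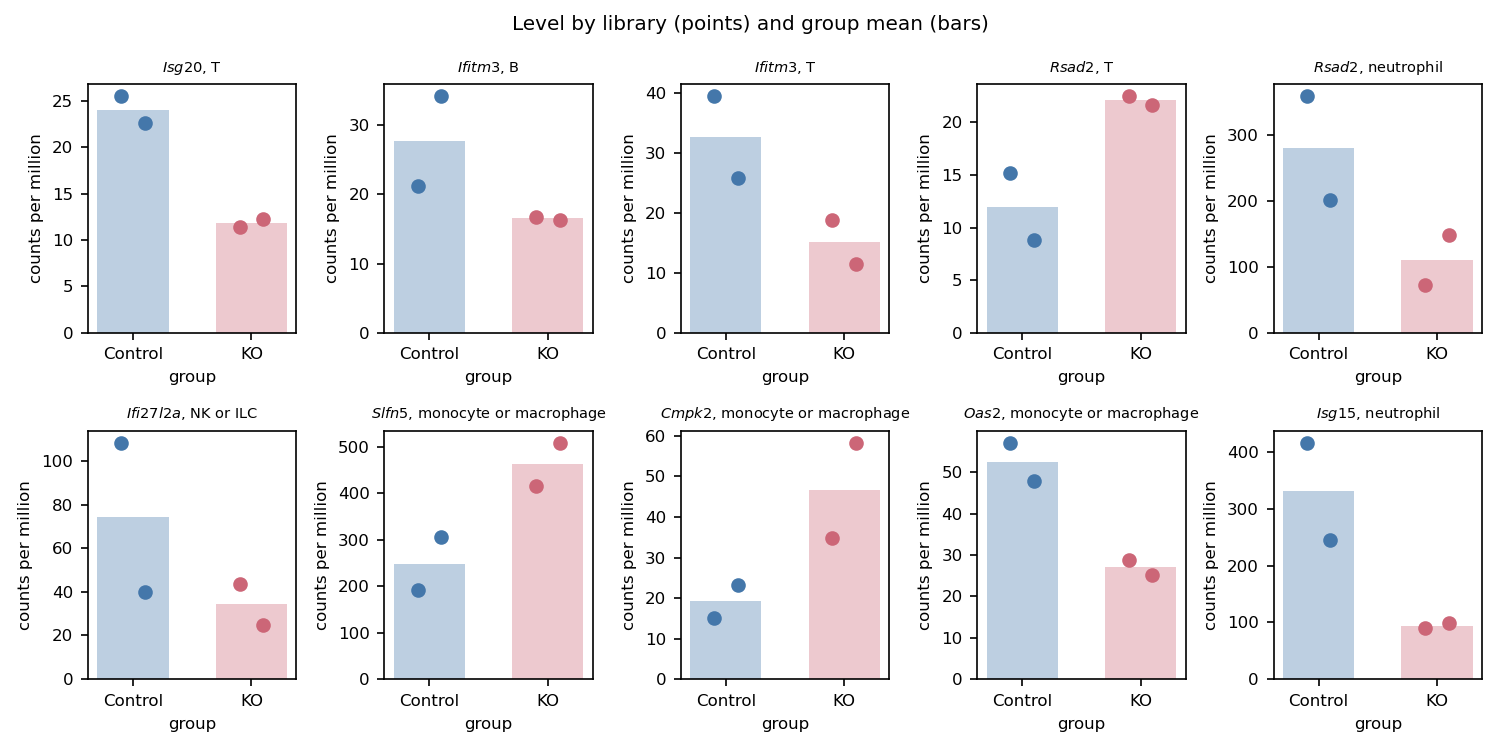
CPM in each library (points) and group means (bars) of 10 gene and class pairs, with the y axis from 0. Isg20 in T cell-like cells is at 25.5 and 22.6 CPM in Control and at 11.4 and 12.2 in KO, while Slfn5 and Cmpk2 in monocyte or macrophage-like cells are higher in both KO libraries.

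Genes that make, sense or transmit interferon were taken from a list of 46 genes with a row that hold no member. In NK or ILC-like cells edgeR called 1 of 23 tested, against 2.2% of all 7329 genes tested there. This was Irf8, a transcription factor of myeloid and lymphoid cells, at 179 and 301 CPM in Control and 537 and 519 CPM in KO. Irf8 rose by 0.89 ± 0.19 on the log2 scale (adjusted p = 0.00207). Ifng, the gene of interferon gamma, was at 400, 325, 608 and 613 CPM there (0.60 ± 0.18, adjusted p = 0.0613). Both KO libraries lay above both Controls for Ifng, as for 35.2% of all genes tested there. The 8 NK or ILC markers of these cells summed to 2871 and 2751 CPM in Control and 3740.5 and 3884 CPM in KO. Their part in the Irf8 and Ifng values was not tested. The other classes gave 0 calls by edgeR and by DESeq2 in this list, of 27 tested in T cell-like (3 at an unadjusted p below 0.05), 27 in B cell-like (5), 25 in monocyte or macrophage-like (5) and 9 in neutrophil-like cells (1). Over all genes tested, the counts at that unadjusted p were 1730 of 11405, 1221 of 9905, 873 of 6964 and 114 of 1560 in those classes.

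In T cell-like cells Ifng was at 311, 184, 253 and 204 CPM (-0.13 ± 0.20, adjusted p = 0.827), with the groups overlapping. The ligand genes of type I interferons were nearly silent: Ifnb1 and Ifna2 had 1 UMI each in Control 1, and Ifnab 1 in Control 2. Of the receptors, Ifnar1 was at 52.5 and 57.7 CPM in Control and 75.6 and 75.1 CPM in KO (0.40 ± 0.13, adjusted p = 0.196), with the groups apart. Ifnar2 was at 53.9, 56.5, 51.0 and 45.6 CPM, lower in both KO libraries, and Ifngr2 at 5.54, 9.64, 11.7 and 12.0 CPM, higher in both; neither passed the test. Ifngr1 was at 293, 223, 248 and 265 CPM. The kinase gene Jak2 (64.3, 46.3, 58.3 and 59.0 CPM) and the inhibitor Socs1 (204, 133, 152 and 144 CPM) overlapped between the groups.

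In monocyte or macrophage-like cells Ifngr1 was at 221, 286, 280 and 266 CPM, Ifngr2 at 92.1, 106, 119 and 142 CPM, Ifnar1 at 86.2, 79.0, 75.8 and 83.5 CPM and Ifnar2 at 136, 160, 155 and 180 CPM. Jak2 was at 57.1, 36.0, 31.3 and 39.4 CPM and Socs1 at 32.6, 29.6, 30.1 and 29.9 CPM. Only Ifngr2 of these did not overlap between the groups (0.30 ± 0.22, adjusted p = 0.658). Ifngr2 encodes the signalling chain of the gamma receptor. In B cell-like cells Ifngr2 was at 45.2, 46.4, 42.7 and 39.7 CPM, Ifngr1 at 70.7, 48.6, 62.7 and 60.6 CPM, Ifnar1 at 60.8, 63.0, 61.9 and 66.1 CPM and Ifnar2 at 42.4, 36.9, 34.9 and 32.2 CPM. Jak2 (83.4, 58.6, 76.1 and 69.2 CPM), Socs1 (50.9, 40.5, 32.4 and 37.98 CPM) and Ifng (4.24, 1.63, 7.74 and 4.09 CPM) gave no call there either.

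Single cells were read for members found together. Cells with at least 1000 UMIs were thinned to 1000 each, and those with UMIs of at least 2 type I genes were counted. They made up 6% and 7.98% of Control and 5.53% and 10.8% of KO monocyte or macrophage-like cells, and 13.9% (5 of 36 cells, exact binomial 95% interval 4.67 to 29.5%), 12.4%, 6.38% and 9.76% of neutrophil-like cells. In the lymphoid classes the share was between 0% and 1.71%, the 0% being 0 of 208 NK or ILC-like cells of Control 2, which allows up to 1.44% by 3 counts of the total (exact binomial 95% upper bound 1.76%). For at least 2 gamma-type genes the 2 Controls had 3.68% and 3.06% of T cell-like cells and the KO libraries 5.22% and 2.28%, while the 4 libraries had 1.67%, 2.15%, 3.69% and 1.80% of monocyte or macrophage-like cells. The cells too shallow for this numbered 524, 471, 383 and 144 of the T cell-like and 156, 73, 40 and 14 of the monocyte or macrophage-like cells; without thinning, the T cell-like shares for type I genes were 2.44%, 2.34%, 3.12% and 3.69%. Over 10 comparisons of the 2 groups the exact two-sided permutation p was 0.333 at the least, the smallest that 2 against 2 libraries can give, and 1 after adjustment.

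Transcripts of Ifit1 were held by few cells. Of 167, 240, 444 and 387 NK or ILC-like cells, 13, 13, 24 and 20 held an Ifit1 UMI, and the 10 cells with the most held 90.3%, 93.8%, 73.0% and 76.7% of its UMIs, with up to 12 in 1 cell. In T cell-like cells, where 72, 114, 140 and 90 cells held Ifit1, the top 10 held 34.4%, 32.5%, 21.3% and 37.4%. Pooled over all libraries, Ifit3 was found more often in cells with Ifit1 than in cells without Ifit1, though most cells with Ifit1 held none. Of monocyte or macrophage-like cells with Ifit1, 26 of 57 also held Ifit3 (45.6%), against 3.31% of those without Ifit1. The corresponding shares were 17.3% (72 of 416) and 1.61% in T cell-like and 22.9% (16 of 70) and 1.54% in NK or ILC-like cells. Pooled over libraries, cells with Ifit1 were deeper, with a median of 3628 against 1904 UMIs in monocyte or macrophage-like and 2661 against 2434 in T cell-like cells. This did not hold in T cell-like cells of Control 1 alone, with 1390 against 1403 UMIs. The part of depth in these shares was not tested. For Gbp2 and Gbp4 in T cell-like cells the corresponding shares were 26.9% (185 of 689) and 17.5%, at medians of 3567 and 2370.5 UMIs.

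The 2 dendritic classes were too small to test. Plasmacytoid dendritic-like cells (44, 32, 10 and 17 cells), the type known for making type I interferon, held Bst2 at 2968, 3664, 3154 and 2847 CPM, against 269 ± 42.1 CPM in monocyte or macrophage-like cells. Their Irf7, the factor that switches on interferon alpha genes, was at 220, 180, 71.7 and 194 CPM. In conventional dendritic-like cells (115, 64, 25 and 19 cells) Ifitm3 was at 1114 and 974 CPM in Control and at 184 and 91.7 CPM in KO, from 241, 173, 9 and 7 UMIs. Ifi27l2a there was at 1248, 816, 635 and 144 CPM. The monocyte and macrophage markers summed to 356, 400, 287 and 537 CPM in these cells, with the groups overlapping, and their part in the Ifitm3 values was not tested. The kinds of dendritic cell pooled in this class were not told apart. Genes of the 2 dendritic classes were named outside the naming rule given below. The share of all genes without overlap between the groups was not counted there.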

How the data were processed

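The deposited files hold unnormalized UMI counts for each gene in each cell barcode, which the authors made with Cell Ranger 3.1.0 on mm10, per the submitters' processing notes. Members and lists were chosen with earlier results of these data known. Cells were kept with at least 500 UMIs, 250 genes and at most 25% mitochondrial UMIs. Doublets were scored with Scrublet (scanpy 1.11.5), and the highest scores were removed at 0.8% per 1000 barcodes, since its caller marked 0, 0, 1 and 84 cells. A cell took a class with at least 2 markers of it and at least 2 times those of the next class, a rule chosen by comparing marker rules with clusters, before any member was fitted; 73.8% to 92.0% of cells per library took one. Counts were summed per class and library where each library had at least 20 cells.

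KO was compared with Control by edgeR 4.0.16 (TMM, filterByExpr, quasi-likelihood, Benjamini-Hochberg adjustment over all genes tested, adjusted p below 0.05), with DESeq2 1.42.0 among the alternatives. Standard errors come from the log2 fold change and its F value. Named were, per class, each member past the threshold, the 3 with the smallest p, the 3 most abundant type I and gamma-type members, and fixed pathway genes, 1 of which is not reported here. On simulated counts with 200 changed genes, edgeR recovered 66.7% of 2-fold changes in T cell-like cells (11399 genes) and 63.2% in B cell-like (9847), 46.0% in NK or ILC-like (7314), 42.7% in monocyte or macrophage-like (6947) and 11.8% in neutrophil-like cells (1525). Among those 1525 genes of neutrophil-like cells, 85 were changed by 1 and 80 by 2 on the log2 scale, whereas the real fit called 1 of 1560. Recovery after adjustment depends on the share of changed genes, so these rates may be too high for the real data. Libraries of a group were no duplicates (chi-square per degree of freedom 40.5 and 19.1). All 44 members matched GENCODE M21. Intervals cover counting error only.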

Additional observations from a re-analysis of the deposited data

Results flagged for a closer look

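In each of the 8 pairs of classes listed here, both KO libraries lay below both Controls for a named gene in one class and above in the other. The list was picked from these same values and is not complete. How many of all genes lay on opposite sides in such pairs was not counted. Taken class by class, 19.3% of genes tested lay below in T cell-like cells. In monocyte or macrophage-like cells 27.3% lay above. Oasl1, for example, lay above in NK or ILC-like and below in monocyte or macrophage-like cells. None of these differences was itself tested. The differences in log2 fold change were -1.40 for Isg20 between T cell-like and monocyte or macrophage-like cells, -1.26 for Ifitm3 between the same classes and -1.19 for Ifitm3 between B cell-like and monocyte or macrophage-like cells. For Rsad2 they were 2.33 between T cell-like and neutrophil-like cells and -1.95 between neutrophil-like and NK or ILC-like cells. For Slfn5 they were 1.01 between monocyte or macrophage-like and T cell-like cells and 1.98 between monocyte or macrophage-like and neutrophil-like cells, and for Cmpk2 1.60 between monocyte or macrophage-like and T cell-like cells.

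In conventional dendritic-like cells, a class outside the tests, Ifit1 reached 511 CPM in KO 2, against 23.1 and 0 CPM in the Controls and 0 in KO 1. All 39 UMIs came from 1 of the 19 cells.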

How the results depend on the processing

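Control and KO share the replicate numbers 1 and 2, but the labels do not say that a number marks a shared animal or batch. Same-numbered libraries deviated together only weakly (correlation across genes 0.12, 0.11, 0.09, 0.08 and -0.12 in T cell-like, B cell-like, NK or ILC-like, monocyte or macrophage-like and neutrophil-like cells). With the replicate number as a block, members called were 2 higher and 5 lower in T cell-like, 2 lower in B cell-like, 1 lower in NK or ILC-like and 2 higher in monocyte or macrophage-like cells, and all genes called were 812, 361, 295 and 236 in these classes and 0 in neutrophil-like cells.

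Without the filter on low counts, members called were 1 higher and 3 lower in T cell-like, 2 higher and 1 lower in monocyte or macrophage-like and 1 lower in neutrophil-like cells, and all genes called were 575, 213, 335 and 11 in T cell-like, B cell-like, monocyte or macrophage-like and neutrophil-like cells. DESeq2 called 0 members lower in B cell-like cells. It called 94, 27, 46, 53 and 0 genes in T cell-like, B cell-like, NK or ILC-like, monocyte or macrophage-like and neutrophil-like cells. With doublets kept, 2 members were called lower in T cell-like and 0 in B cell-like cells, and 74, 24, 88 and 0 genes in T cell-like, B cell-like, NK or ILC-like and neutrophil-like cells. At most 10% mitochondrial UMIs gave 0 members and 50 genes in B cell-like cells and 99 genes in NK or ILC-like cells. At least 1000 UMIs gave 1 member higher among 130 genes called in T cell-like cells and 0 genes in neutrophil-like cells. Leiden clusters gave 0 members lower in B cell-like, 1 in NK or ILC-like and 1 in neutrophil-like cells, with 40, 49, 147 and 6 genes in T cell-like, B cell-like, NK or ILC-like and neutrophil-like cells. Leaving out cells with C1q UMIs gave 58 genes, and leaving out clusters of mostly dendritic cells gave 1 member higher among 177 genes called, in monocyte or macrophage-like cells; both were chosen after seeing the data. The gamma-type median of that class was 0.27 by DESeq2, 0.16 with at most 10% mitochondrial UMIs, 0.29 by Leiden clusters, 0.15 without C1q cells and 0.27 without dendritic clusters.

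Leaving out 1 library at a time, members called higher were 1 throughout in T cell-like and 0 to 3 in monocyte or macrophage-like cells. Members called lower were 1 to 6 in T cell-like (6 without Control 2), 0 to 3 in B cell-like, 0 to 2 in NK or ILC-like, 0 to 1 in monocyte or macrophage-like and 0 to 7 in neutrophil-like cells. All genes called were 176 to 577, 0 to 268, 58 to 128, 134 to 376 and 2 to 54 in those 5 classes. The type I median was -0.74 to 0.031 in B cell-like, -0.83 to 0.30 in NK or ILC-like and -0.14 to 0.22 in monocyte or macrophage-like cells. The gamma-type median was -0.35 to 0.16 in T cell-like, -0.32 to -0.10 in B cell-like, -0.18 to 0.26 in NK or ILC-like and 0.091 to 0.24 in monocyte or macrophage-like cells.

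Shares of cells with several members, as KO minus Control in percentage points, moved without thinning to 1.01 (type I) and 5.07 (gamma-type) in T cell-like, 0.44 and 0.82 in B cell-like, 7.99 and 3.62 in monocyte or macrophage-like cells, and for gamma-type genes to 5.10 in NK or ILC-like and -1.49 in neutrophil-like cells. With 1 member needed they were -0.56 and -0.45 in B cell-like and -2.94 and 3.12 in monocyte or macrophage-like cells, and -1.52 for type I genes in NK or ILC-like cells. With 3 type I members needed they were -0.14 in B cell-like, 0 in NK or ILC-like and 1.24 in neutrophil-like cells. The cause of these shifts was not tested. Of the values of single named genes, 139 stayed on their side of the threshold, 7 lost a call and 35 gained one; none changed direction past the threshold. Neutrophil-like cells, with 51 to 192 cells a library, gave the least depth.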
